A study of Mus musculus with 18 samples.

Results

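mmu-miR-132-3p and mmu-miR-212-3p are the 3p strands, or arms, of neighbouring mouse hairpins with a common seed, and both have been linked to fibrosis. They were taken by name as 2 of the 1184 named entries in a table of small RNA read counts from mouse kidney. Both passed the filter on low counts, as did 619 entries in all, and so did the 5p strands of the same hairpins, miR-132-5p and miR-212-5p. Each of the 3 groups has 6 libraries. C57BL/6J mice on 0.9% saline are the control. C57BL/KsJ mice with diabetic nephropathy (DN) also had saline, and the treated group, likewise C57BL/KsJ with DN, was dosed with 10 mg/kg/day of the sesquiterpene germacrone. No genotype, age or sex is labelled. Nor do the labels say that libraries are separate animals, and p-values thus measure only the spread between these libraries, which may be technical. Strain changes together with disease, and the 2 cannot be told apart in either comparison with control.

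The pair is processed from a primary transcript whose promoter responds to the transcription factor CREB, and is best known from neurons, where it follows synaptic activity. In other tissues miR-132 has been described in activated endothelium, in heart muscle and in kidney myofibroblasts, with the Ras regulator RASA1 and the transcription factor FOXO3 among its described targets. A miRNA recognises its targets mainly through its seed, bases 2 to 8 counted from the 5′ end, so miRNAs with equal seeds have largely overlapping predicted targets.

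The mature sequences show what the strands share and where they differ. They are given 5′ to 3′ from RefSeq on GRCm38.p6, with the seed in capitals.

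miR-132-3p: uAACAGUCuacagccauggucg
miR-212-3p: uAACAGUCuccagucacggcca
miR-132-5p: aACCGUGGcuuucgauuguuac
miR-212-5p: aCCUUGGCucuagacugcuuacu

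Both 3p strands are 22 bases long, begin with the same 9 bases and are identical at 17 positions. Written with the miR-132-3p base first and counted from the 5′ end, they differ by A10C, C14U, U17C, U20C and G22A. Of 1679 mature miRNA names in the RefSeq table, these 2 alone carried their seed, while each 5p strand had a seed found in no other name. Reads cut short at their 3′ end keep fewer of these differences, and how such reads were assigned was not given in the sources used here. Their G and C content is 50% in miR-132-3p and 54.5% in miR-212-3p.

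The hairpins are printed because the counts of their strands are compared with each other. Capitals mark the 5p and then the 3p mature sequence.

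Mir212: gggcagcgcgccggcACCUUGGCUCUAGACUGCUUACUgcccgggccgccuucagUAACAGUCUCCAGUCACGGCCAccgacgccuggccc
Mir132: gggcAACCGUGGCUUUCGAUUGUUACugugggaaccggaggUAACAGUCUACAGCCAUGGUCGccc

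Mir212 spans chr11:75173388-75173478 and Mir132 spans chr11:75173682-75173747, both on the plus strand of GRCm38, with 203 bases between them. In GENCODE M21 both lie within intron 1 of the 3-exon non-coding gene 1700016P03Rik (chr11:75172560-75177633, plus strand). The deposited table has no coordinates, so these positions come from the annotation.

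Libraries held 3639788 to 7236245 named counts. Abundant epithelial miRNAs of kidney were present on average over the libraries, among them miR-30a-5p at 63200 CPM (counts scaled to a common library total with TMM factors), miR-10a-5p at 33610 CPM and miR-192-5p at 22870 CPM. Libraries DN 2, DN 3 and control 2 stood apart: the median correlation of log2 CPM with the other libraries of their group was 0.896, 0.926 and 0.946, against 0.958 to 0.973 elsewhere. The fits of the pair are therefore given with and without DN 2, and list medians also without all 3. A count from whole tissue cannot tell fewer cells of a type from less RNA per cell.

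The dominant product of the locus was miR-132-3p, the strand most often described in fibrosis. Averaged over the 18 libraries it stood at 134 ± 69.6 CPM (SD), rank 176 among 441 mouse miRNA names by mean level. Its partner miR-212-3p averaged 16.4 ± 13.04 CPM and ranked 296. The 5p strands were lower still, with miR-132-5p at 11.8 ± 7.03 CPM (rank 319) and miR-212-5p at 8.29 ± 5.87 CPM (rank 344). All 72 values of these 4 strands were whole numbers, and no other entry had the same values as any of them.

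Control kidneys held miR-132-3p in a narrow band, with a lowest value of 108 CPM, a median of 127 and a highest of 145 (129 ± 13.7, SD, n = 6). DN kidneys spanned 82.6 to 389 CPM around a median of 108.5 (156 ± 118, n = 6), and treated kidneys 85.2 to 179.8 CPM around a median of 104 (116 ± 34.9, n = 6). DN 2 at 389 CPM and DN 3 at 166 CPM lay above every control, DN 4, DN 5 and DN 6 at 82.9, 82.6 and 90.2 CPM lay below every control, and DN 1 at 127 CPM lay among them. In the treated group, treated 6 at 179.8 CPM lay above every control, 4 libraries lay below and treated 1 lay among them. The groups therefore overlapped, and the means and medians ordered them differently: DN had the highest mean and control the highest median. The coefficient of variation was 10.6% in control, 75.8% in DN (33.3% without DN 2) and 30.1% in treated kidneys. Whether these spreads differ was not tested.

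The rarer strand, miR-212-3p, had a lowest value of 11.8 CPM, a median of 12.1 and a highest of 26.0 in control (14.8 ± 5.62, SD, n = 6). It ran from 6.73 to 61.3 CPM in DN with a median of 13.8 (22.3 ± 20.8, n = 6), and from 5.77 to 24.5 CPM in treated kidneys with a median of 10.2 (12.1 ± 6.99, n = 6). Control 2 set the top of the control group at 26.0 CPM, while its other 5 libraries lay between 11.8 and 14.6 CPM. DN 2 at 61.3 and DN 3 at 29.7 CPM exceeded every control, whereas DN 4 at 8.54 and DN 6 at 6.73 CPM lay below every control. Treated 1 to 4 lay below every control and treated 5 and 6 among them. The lowest value, in treated 2, rested on 21 reads, for which the 95% exact binomial interval ran from 3.58 to 8.83 CPM. The highest, in DN 2, rested on 421 reads with an interval of 55.5 to 67.4 CPM. These intervals cover counting error only.

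**Figure D1:**
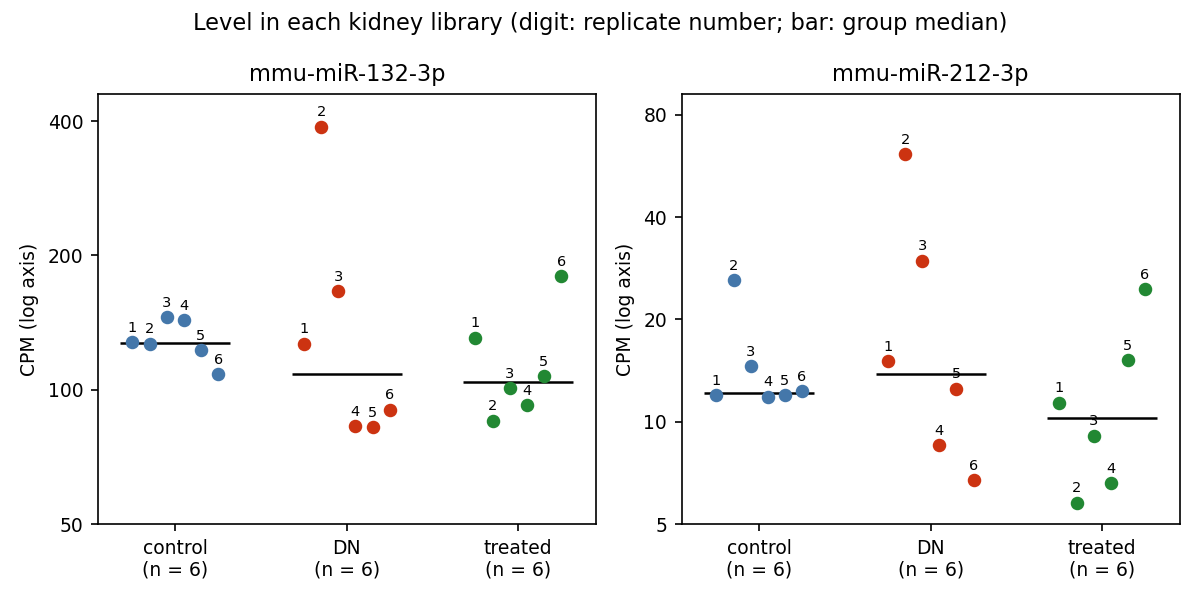
CPM of miR-132-3p (left) and miR-212-3p (right) on log axes, with 1 point per library numbered by replicate and a bar at each group median. Control values of miR-132-3p lie between 108 and 145 CPM, DN 2 is the highest library in both panels at 389 and 61.3 CPM, and the 3 groups overlap for both strands.

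The 5p strands were also highest in DN 2, but lay differently against the controls. Controls held 5.61 to 13.5 CPM of miR-132-5p, DN kidneys 7.14 to 37.2 CPM and treated kidneys 8.25 to 18.6 CPM, with the highest values in DN 2 and treated 6. For miR-212-5p the ranges were 4.75 to 8.48 CPM (control), 3.12 to 29.98 CPM (DN) and 5.22 to 13.4 CPM (treated), again highest in DN 2 and treated 6. Neither was raised in control 2, where miR-132-5p stood at 6.65 and miR-212-5p at 4.75 CPM. No DN or treated library lay below every control for miR-132-5p, while 2 DN libraries and 1 treated library lay above. For miR-212-5p, DN 5 lay below every control, and DN 2, treated 1 and treated 6 lay above.

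DN against control asked whether the pair differs in kidneys with diabetic nephropathy. By the edgeR quasi-likelihood test, miR-132-3p had a log2 fold change (log2FC) of 0.28 (SE 0.33, 95% CI −0.41 to 0.96, adjusted p = 0.869). For miR-212-3p the log2FC was 0.59 (SE 0.48, CI −0.41 to 1.60, adjusted p = 0.807). Neither passed the threshold of an adjusted p under 0.05, which 0% of the 619 entries passed in this comparison. Only 2 of 6 DN libraries exceeded the control median for miR-132-3p, and 4 of 6 for miR-212-3p. At an unadjusted p under 0.05, which 7.59% of entries reached, neither strand was counted, with p at 0.412 and 0.233 by edgeR. No entry had non-overlapping groups here (0%).

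The positive estimates depended on DN 2. Without it, miR-132-3p turned to a log2FC of −0.19 (CI −0.68 to 0.31, adjusted p = 0.796), and miR-212-3p to 0.034 (CI −0.85 to 0.92, adjusted p = 0.981). The means of the 5 other DN libraries were 109.8 ± 36.5 CPM for miR-132-3p and 14.5 ± 9.11 CPM for miR-212-3p. For the 5p strands the log2FC was 0.58 (adjusted p = 0.706) for miR-132-5p and 0.64 (adjusted p = 0.706) for miR-212-5p, and without DN 2 it was 0.071 and −0.038. The intervals without DN 2 still hold changes of 0.624 to 1.24-fold for miR-132-3p and 0.555 to 1.89-fold for miR-212-3p, so changes within them were not excluded. In that fit 0.952% of 630 entries passed, and 0 of the 4 strands did.

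Treated against DN asked whether germacrone changes the pair in DN mice. The log2FC was −0.43 for miR-132-3p (SE 0.33, CI −1.12 to 0.26, adjusted p = 0.800) and −0.88 for miR-212-3p (SE 0.48, CI −1.89 to 0.13, adjusted p = 0.800). Treated libraries lay below the DN median in 4 of 6 cases for either strand. None of the 4 strands passed, and 0% of entries did. The unadjusted p was 0.208 for miR-132-3p and 0.0861 for miR-212-3p by edgeR, in a comparison where 3.72% of entries were under 0.05 and 0% had non-overlapping groups. By size of change, 9.85% of entries had a larger absolute log2FC than miR-212-3p.

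This estimate too changed without DN 2. The log2FC of miR-132-3p was then 0.027 (CI −0.47 to 0.52, adjusted p = 0.994), and that of miR-212-3p was −0.32 (CI −1.21 to 0.56, adjusted p = 0.889), with 0% of entries called. The 5p strands, miR-132-5p at a log2FC of −0.34 and miR-212-5p at −0.33, turned positive without DN 2, at 0.18 and 0.35. All of these had an adjusted p of at least 0.878 by edgeR. DN libraries enter both this comparison and the one with control, so a high DN library raises the estimate of DN against control and lowers that of treated against DN by construction.

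Treated against control compares kidneys of germacrone-treated DN mice with those of control mice. The estimates were a log2FC of −0.15 for miR-132-3p (SE 0.33, CI −0.84 to 0.53, adjusted p = 0.803) and −0.29 for miR-212-3p (SE 0.49, CI −1.30 to 0.73, adjusted p = 0.771). For each member 4 of 6 treated libraries lay below the control median. miR-132-5p was at a log2FC of 0.24 and miR-212-5p at 0.31, with 4 of 6 libraries of each above the control median. None passed the threshold, as for 0% of all entries. This comparison had 19.5% of entries at an unadjusted p under 0.05 and 5.17% with non-overlapping groups, and the 4 strands were in neither set (unadjusted p = 0.488 to 0.647 by edgeR). Without control 2 the log2FC of miR-212-3p was 0.0027. Without DN 2, which is part of the shared fit, the values were −0.16 for miR-132-3p and −0.29 for miR-212-3p, and 1.11% of entries passed.

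**Figure D2:**
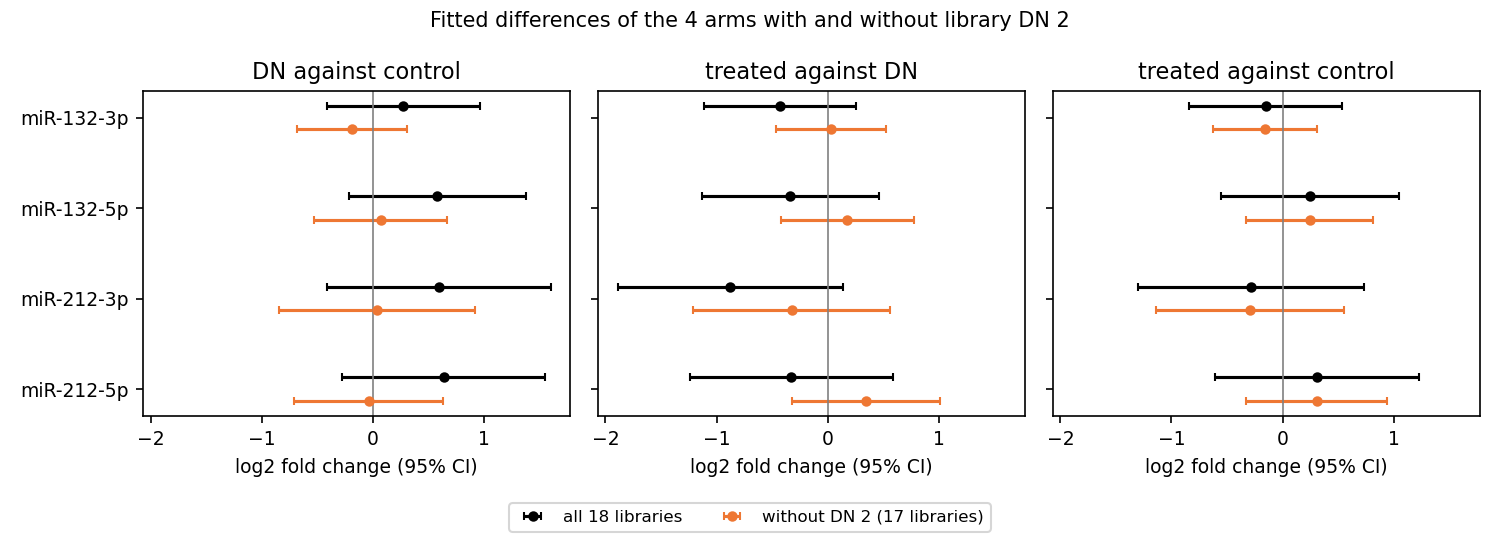
Fitted log2 fold changes with 95% confidence intervals for the 4 strands in each comparison, from all 18 libraries (black) and from 17 libraries without DN 2 (orange). Every interval spans 0, and leaving out DN 2 moves the DN against control estimate of miR-132-3p from 0.28 to −0.19 and its treated against DN estimate from −0.43 to 0.027.

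The balance between the 2 seed partners does not depend on how libraries are scaled, since both are counted in the same library. On the raw counts miR-132-3p was between 4.87 and 14.8 times as abundant as miR-212-3p. Expressed as a share of both 3p strands together, miR-212-3p made up 10.2 ± 3.44% in control, 11.47 ± 3.06% in DN and 8.95 ± 2.63% in treated kidneys (SD, n = 6 each). The 3 highest shares were in control 2 (17.04%, exact binomial CI 14.9 to 19.4), DN 3 (15.2%, CI 12.9 to 17.7) and DN 2 (13.6%, CI 12.4 to 14.9), the same 3 libraries that stood apart from their groups over all entries. DN 5, which did not stand apart from its group, came next at 13.15% (CI 10.1 to 16.7), and its interval overlapped that of DN 2. The lowest share was in treated 2 at 6.34% (CI 3.97 to 9.54). On the log2 scale the mean ratio of miR-212-3p to miR-132-3p was −3.19 in control, −2.99 in DN and −3.40 in treated kidneys, with SDs of 0.47, 0.47 and 0.45. The differences between groups were smaller than these SDs, and their part in the level of miR-212-3p was not tested.

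The strands of each hairpin were used unequally. From Mir132 nearly all reads came from the 3p strand, 90.6% to 95.6% over the 18 libraries. The Mir132 share was 93.1 ± 1.74% in control, 91.6 ± 0.87% in DN and 91.1 ± 0.54% in treated kidneys (n = 6 each), with control 5 at 95.6% and control 2 at 95.02% the highest. The lowest control share, 91.5%, lay below the highest treated share, 92.0%, so the groups overlapped. From Mir212 the 3p strand held 46.4% to 84.6% of the reads, with 67.9 ± 9.1% in control, 67.2 ± 11.9% in DN and 57.7 ± 9.77% in treated kidneys. Control 2 was highest at 84.6% (CI 79.2 to 89.0, 227 reads), followed by DN 5 at 80% (CI 68.7 to 88.6, 70 reads) and DN 3 at 78.6% (CI 71.7 to 84.5, 173 reads). Treated 4 was lowest at 46.4% (CI 33.0 to 60.3, 56 reads), so its interval did not overlap those of these 3. The group means of the Mir212 share differed by less than or about as much as the SDs within groups.

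**Figure D3:**
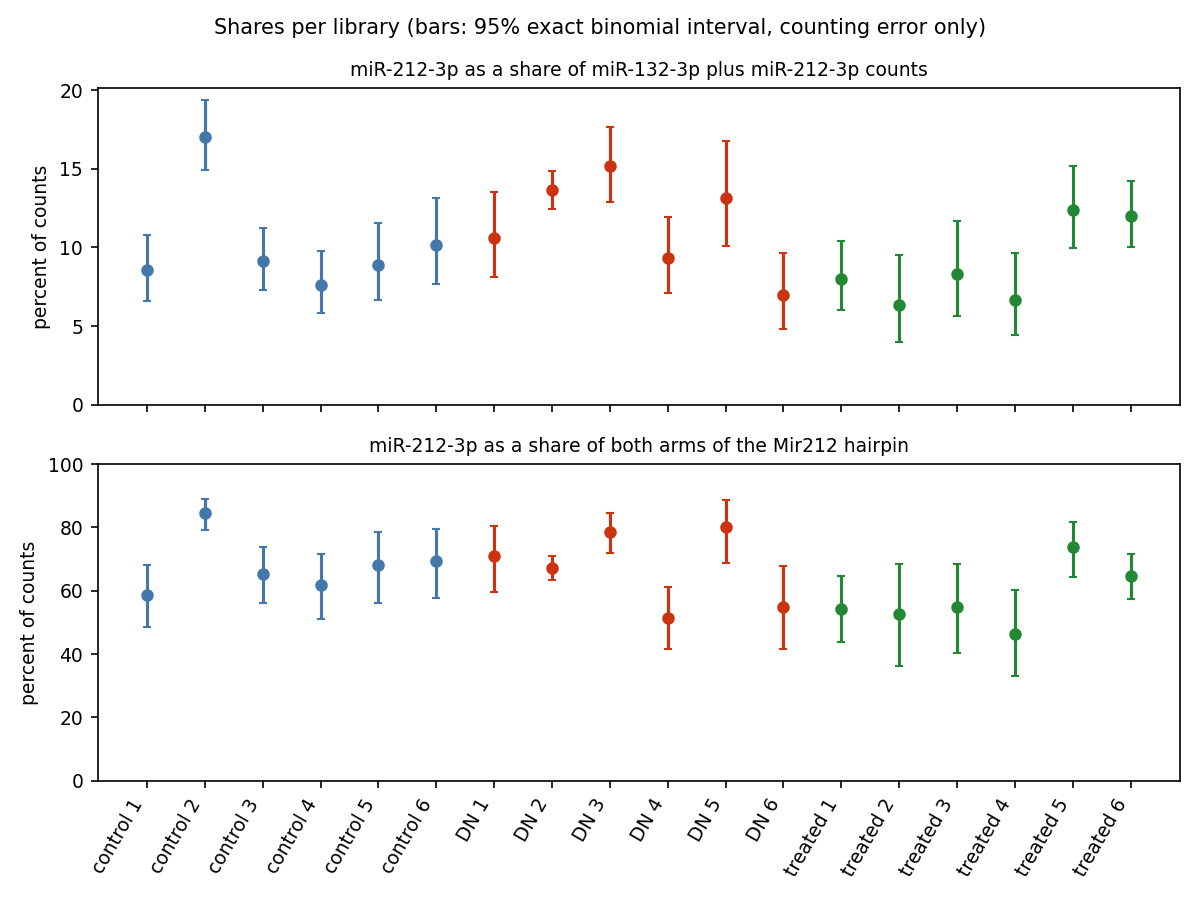
Share of miR-212-3p in the reads of both 3p strands (top) and in the reads of both strands of the Mir212 hairpin (bottom), in percent, for each library with 95% exact binomial intervals. Control 2 is highest in both panels, at 17.04% and 84.6%, and the treated libraries range from 6.34% to 12.4% in the top panel.

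The levels of the 2 members were related across libraries. Over all 18 libraries Pearson's r of log2 CPM was 0.873 (permutation p = 1e-05, the smallest that 100000 resamples can give, adjusted p = 4e-05) and Spearman's rho was 0.655 (permutation p = 0.00399, adjusted p = 0.0160). These and the within-group values form a family of 4, over which p was adjusted by Benjamini-Hochberg. Without DN 2 and DN 5, the libraries farthest from the median of miR-132-3p, r was 0.830 and rho 0.703. Without control 2, DN 2 and DN 3, r was 0.770 and rho 0.532 (permutation p = 0.00057 and 0.0428).

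Within treated kidneys r was 0.905 (exact permutation p = 0.00972, adjusted p = 0.0130) and rho 0.943 (p = 0.0167, adjusted p = 0.0334, n = 6). Within DN kidneys r was 0.946 (exact permutation p = 0.00833, adjusted p = 0.0130) and rho 0.771 (p = 0.103, adjusted p = 0.137, n = 6). Over the 5 DN libraries other than DN 2, r was 0.872 and rho 0.6, with no test. Within control kidneys r was 0.0498 (exact permutation p = 0.944) and rho −0.0286 (p = 1, n = 6). Control values of miR-132-3p varied little, and control 2 carried the highest miR-212-3p of its group at a middle level of miR-132-3p. Whether the relation differs between groups was not tested.

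**Figure D4:**
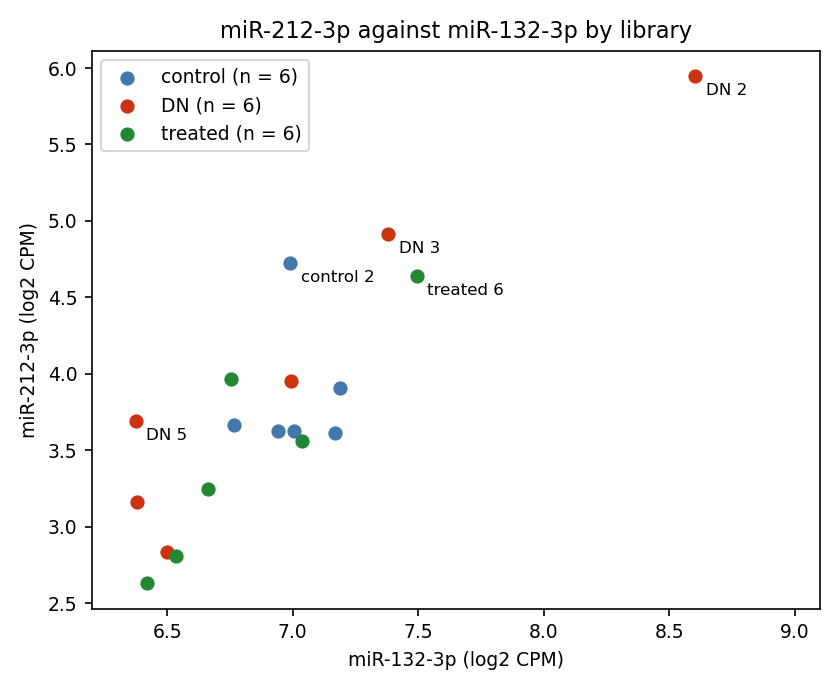
Log2 CPM of miR-212-3p against miR-132-3p, 1 point per library, coloured by group. DN 2 is at the upper right, and control 2 lies above the other 5 controls at a similar level of miR-132-3p.

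Ranked against all other mouse miRNA names by Spearman's rho over the 18 libraries, the closest match of miR-132-3p was the other strand of its own hairpin, miR-132-5p (rho = 0.792, rank 1 of 440). miR-212-5p ranked 13 (rho = 0.659) and miR-212-3p 15 (rho = 0.655). For miR-212-3p, miR-132-3p ranked 31 and its own hairpin partner miR-212-5p only 182, at a rho of 0.183. Without control 2, DN 2 and DN 3 these ranks were 1 for miR-132-5p with miR-132-3p (rho = 0.800) and 197 for miR-212-5p with miR-212-3p (rho = 0.0714). Counts of miR-212-5p ran from 14 to 206 reads per library. All such correlations share the scaling and the depth of the libraries.

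Outside the locus, 325 mouse names with a mean of at least 10 CPM were ranked in the same way. The 5 most like miR-132-3p were miR-214-3p (rho = 0.759), a miRNA of fibroblasts and pericytes, miR-674-5p (0.742), the neuronal miR-129-2-3p (0.742), miR-652-3p (0.740) and miR-130b-3p (0.734). The 5 most like miR-212-3p were miR-130b-3p (rho = 0.891), miR-574-5p (0.802), miR-125a-3p (0.792), miR-532-3p (0.787) and miR-652-3p (0.779). miR-652-3p and miR-130b-3p were on both short lists. The mean of miR-130b-3p, 10.9 CPM, met the limit of 10 CPM only through DN 2, where both members were also highest. In DN 2, miR-214-3p reached 1608 CPM against 140.0 to 586 CPM in the other 17 libraries, and miR-130b-3p 89.0 CPM against 3.02 to 15.1. Without DN 2, DN 3 and control 2, rho was 0.729 for miR-214-3p with miR-132-3p and 0.875 for miR-130b-3p with miR-212-3p.

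Lists of miRNAs drawn up from general knowledge place the pair beside other markers. By edgeR, 0 members of the 8 lists passed in any comparison, and neither did any other of the 619 entries (0% in each). The count of 0 therefore says nothing particular to the lists. Members of the kidney injury and fibrosis list, led in abundance by miR-21a-5p and miR-199a-3p, had a median log2FC of 0.45 in DN against control (10 of 12 tested above 0), −0.27 in treated against DN (1 of 12) and 0.30 in treated against control (8 of 12). At an unadjusted p under 0.05 there were 3, 0 and 5 of the 12, where 7.59%, 3.72% and 19.5% of all entries were. The 12 are not all separate measurements. Among them miR-199a-5p and miR-199b-5p had equal values (mean 737 CPM, log2FC 0.51, −0.030 and 0.48), and miR-21a and miR-214 entered with both strands. Over all entries the medians were 0.075, −0.054 and −0.0035, with 56.5%, 42.2% and 49.8% of entries above 0. Without DN 2 the injury medians were 0.038, 0.33 and 0.30, and without control 2, DN 2 and DN 3 they were −0.041, 0.33 and 0.23. The list summed to 202300 CPM in DN 2 and to 27590 to 76740 CPM in other libraries of DN. In DN 2, miR-21a-5p alone made up 188700 CPM of that sum. Control libraries summed to 16690 to 51780 CPM and treated libraries to 44200 to 128100 CPM. Antifibrotic miRNAs of the miR-29, miR-30 and miR-200 families had medians of 0.089 (7 of 11 above 0), 0.33 (11 of 11) and 0.48 (10 of 11), and were low in DN 2 at 73440 CPM. Without DN 2 their medians were 0.24, 0.15 and 0.47, and without the 3 libraries 0.23, 0.10 and 0.36. Of these, miR-30a-5p, miR-30c-5p, miR-30e-5p, miR-200a-3p, miR-200b-3p and miR-200c-3p are also in the kidney epithelium list. The antifibrotic and epithelial values thus share counts and are not separate observations.

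Leukocyte markers, led by miR-146a-5p and miR-342-3p, were high together with the pair in DN 2. Their summed level there was 26100 CPM, while the rest of the DN group held 1590 to 2366, control 3177 to 4225 and the treated group 1847 to 9122 CPM. All 8 were tested. Their median log2FC was 0.95 in DN against control (8 of 8 above 0), −1.61 in treated against DN (0 of 8) and −0.024 in treated against control (4 of 8). Without DN 2 it was −0.43 in the first (1 of 8) and 0.31 in the second (6 of 8), and without the 3 libraries −0.71 and 0.48. miR-147-3p was at 0 in 6 libraries. The highest treated library by this sum, treated 6, was also the highest treated library for all 4 strands of the locus. Of its 9122 CPM, miR-146a-5p alone made up 7613. As a mean of log2 CPM relative to all libraries, the list was at 0.50 in treated 6. Treated 3, the next highest of the treated group, was at 0.27. In DN 3, which had the second highest level of both members among DN libraries, the leukocyte sum was 2366 CPM. The part of leukocytes in the levels of the pair was not tested.

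Nerve and endocrine markers stand for the setting in which the pair is best known. Their sum, led on average by miR-7a-5p and miR-218-5p, was 982 CPM in DN 2, within the 962 to 1048 CPM of the DN group. It ran from 646 to 1609 in control and 1025 to 1274 in treated libraries. As a mean of log2 CPM, which weights rare members equally, DN 2 was highest of the DN group at 0.64 above the mean of all libraries, and control 4 was highest of all at 1.12. Of this list 12 of 13 were in the table and 10 were tested, with medians of 0.089, 0.013 and 0.087 (without DN 2 −0.11, 0.084 and 0.082, without the 3 libraries −0.054, 0.12 and −0.00586). miR-7b-5p was at 0 in 16 libraries and miR-137-3p in 13, with both above 0 in DN 2 and control 4. Endothelial markers (both strands of miR-126a) were low in DN 2 at 8007 CPM, in DN 3 at 8034 CPM and in control 2 at 9172 CPM, and ran from 14520 to 25980 CPM elsewhere. These 3 libraries also had the highest share of miR-212-3p among both 3p strands, while DN 5, next by that share at 13.15%, held 19510 CPM. The part of endothelium in that share was not tested. The endothelial medians were −0.11, 0.36 and 0.25. Without DN 2 they were 0.045, 0.20 and 0.25, and without the 3 libraries 0.073, 0.0037 and 0.077.

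Smooth muscle, mesangial and pericyte markers, led by miR-143-3p, summed to 29390 CPM in DN 2, inside the DN range of 22020 to 51650 CPM, with medians of −0.094, 0.21 and 0.12. Without DN 2 these were −0.053, 0.17 and 0.12, and without the 3 libraries −0.028, 0.092 and 0.046. Red blood cell markers, led by miR-451a, were lowest of DN in DN 2 at 1272 CPM, its neighbours holding 2583 to 4287, with medians of 0.20, 0.13 and 0.43. Without DN 2 the red cell medians were 0.43, −0.10 and 0.42, and without the 3 libraries 0.29, −0.16 and 0.24. Kidney epithelium markers stood at 92630 CPM in DN 2, while the rest of DN held 193700 to 340400 CPM, control 195600 to 281700 and the treated group 267900 to 389300 CPM, with medians of 0.14, 0.28 and 0.52. Without DN 2 the epithelial medians were 0.30, 0.094 and 0.51, and without the 3 libraries 0.36, 0.097 and 0.43. DN 2 therefore held high levels of the pair and of leukocyte and injury miRNAs beside a low level of epithelial miRNAs, and the part of this shift in the values of the pair was not tested.

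**Figure D5:**
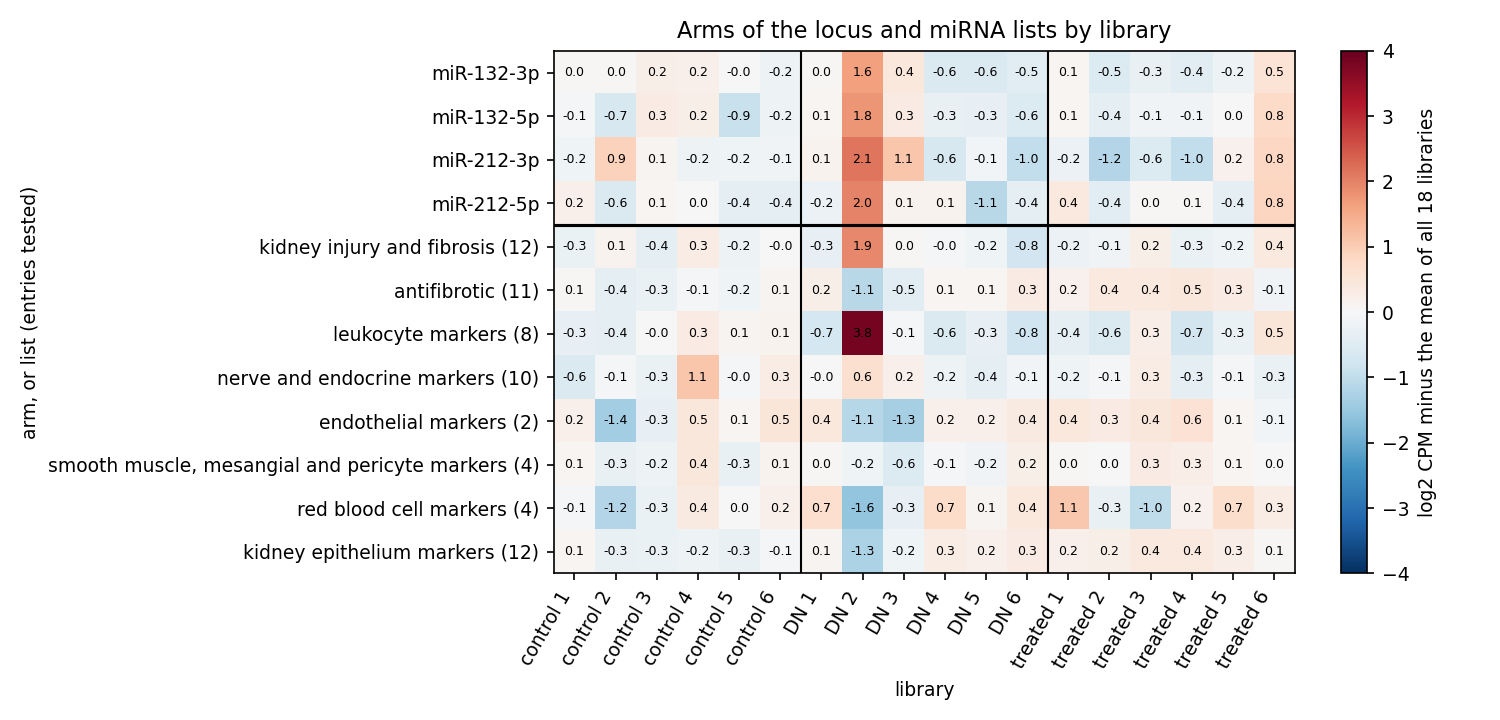
Log2 CPM relative to the mean of all 18 libraries, for the 4 strands of the locus (above the line) and as the mean over the tested members of each list (below it, number tested in brackets), with 1 column per library. In DN 2 the leukocyte list reaches 3.84 and the injury list 1.91, while the epithelial list is at −1.28.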

How the data were processed

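Small RNA was sequenced from mouse kidney in 18 libraries. Per the labels, libraries were made with a TruSeq Small RNA kit, run on an Illumina HiSeq and filtered with ACGT101-miR to remove dimers, simple sequence, repeats and further RNA families. In the submitters' processing notes are Trimmomatic 0.32, BWA, SAMtools and edgeR. Their roles, genome build, miRBase release and the assignment of mismatched reads were not given in the sources used here.

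Raw columns as deposited held estimated counts, 76.9% of the values above 0 being whole, and were rounded. The deposited normalized signal, made by the authors, equalled the raw column after multiplication by a library factor (0.6644 to 1.427) and served only as an alternative scaling. Of 1534 entries, 350 had no name (0.0136% to 0.148% of counts) and were left out.

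All 18 libraries were fitted together with edgeR 4.0.16 (R 4.3.3; TMM factors, group as only factor, quasi-likelihood test by the legacy method, 2-sided). Entries passed filterByExpr (minimum count 10, minimum total 15), and p was adjusted by Benjamini-Hochberg over all 619. These entries carried 505 names, and some repeated the values of another entry. Shares of all entries therefore count some measurements more than once. CPM used TMM factors and log2 CPM a prior count of 2. The method was also run on simulated counts, drawn independently for each entry and with no library set apart. That run does not cover how estimates depend on a library like DN 2. Intervals are at 95%, exact binomial ones being Clopper-Pearson. Strand shares and ratios are descriptions with no test.

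The members and lists were chosen with earlier results of these data known. Named in each comparison were the members and the 5p strands, for each member the 5 names most like it, and from lists those past the threshold or otherwise the most abundant. Other names were picked after their values were seen. Replicate numbers in the titles were not used to pair libraries in the main fit: 3 of 18 same-numbered pairs had a correlation of deviations over 0.1. Such correlations cannot show whether same-numbered libraries were handled together. No 2 libraries of a group agreed within counting noise.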

Additional observations from a re-analysis of the deposited data

Results flagged for a closer look

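Of 21 sets of 6 libraries examined, 6 held a library whose gap to its nearest neighbour was large for the range of the set by Dixon's test. For a single set of normally distributed values, chance flags about 1 in 20. The sets share libraries and counts of 1 locus, and CPM was not transformed, so 6 of 21 cannot be judged against that rate. In DN, DN 2 stood apart for miR-132-3p at 389 CPM (next highest 166), for miR-132-5p at 37.2 CPM (13.5) and for miR-212-5p at 29.98 CPM (8.09). In control, control 2 stood apart for miR-212-3p at 26.0 CPM (14.6) and for the share of miR-212-3p among both 3p strands at 17.04% (10.2%). In the treated group, treated 6 stood apart for miR-132-5p at 18.6 CPM (11.4). For miR-212-3p in DN, DN 2 at 61.3 CPM was not far enough above DN 3 at 29.7 CPM to be picked out.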

How the results depend on the processing

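For the 2 members 0 of 31 alternatives passed the threshold in any comparison. No entry at all passed in 23 of the 31 in DN against control, in all 31 in treated against DN and in 24 in treated against control. In those settings the result is not particular to the pair. Without control 2, DN 2 and DN 3 together, the log2FC turned to −0.45 (miR-132-3p) and −0.25 (miR-212-3p) in DN against control and to 0.27 and 0.19 in treated against DN. With limma-voom and sample weights it turned to −0.50 (adjusted p = 0.0802, the lowest of any alternative) and −0.35, and to 0.29 and 0.058. For miR-132-5p and miR-212-5p these 2 settings gave −0.22 and −0.28, and −0.14 and −0.29, in DN against control, and 0.37 and 0.49, and 0.35 and 0.53, in treated against DN. limma-voom gave DN 2 a weight of 0.0851, DN 3 0.199 and control 2 0.241, the lowest of 18.

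Leaving out 1 library at a time, DN against control ranged from −0.19 to 0.46 for miR-132-3p, 0.034 to 0.90 for miR-212-3p and −0.038 to 0.88 for miR-212-5p. Treated against DN ranged from −0.63 to 0.027 for miR-132-3p, −1.24 to −0.32 for miR-212-3p, −0.56 to 0.18 for miR-132-5p and −0.56 to 0.35 for miR-212-5p. Treated against control ranged from −0.29 to −0.034 for miR-132-3p and −0.59 to 0.0027 for miR-212-3p. The sign changes came without DN 2, and in treated against control without control 2.

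Over all entries, calls in DN against control were 0 to 6 with 1 library left out (6 without DN 2 or DN 3, 1 without control 2), 51 without those 3, 4 with DESeq2, 91 with limma-voom, 6 with the edgeR 4 method and 2 with the stricter filter. In treated against control they were 0 to 7 (7 without DN 2, 3 without DN 3), 50 without those 3, 18, 106, 3 with the edgeR 4 method and 56 in a fit of only the 2 groups. In treated against DN every alternative gave 0. The entries fitted were 619 with limma-voom, 636 without those 3 libraries and 574 in the fit of only the 2 groups. At an unadjusted p under 0.05 edgeR counted 47, 23 and 121 entries.

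With the replicate block, miR-132-3p was at 0.096, −0.24 and −0.15 and miR-212-3p at 0.39, −0.56 and −0.17 in the 3 comparisons, with 0 calls. Library size alone moved the median of all entries by −0.14 in treated against DN and −0.20 in treated against control, and turned the sign of neither member. The stricter filter removed miR-212-5p. The fewest reads behind a value were 310 for miR-132-3p, 21 for miR-212-3p, 23 for miR-132-5p and 14 for miR-212-5p.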
